A study of Mus musculus with 5 samples.

Results

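The genes described here are Myb, Hbs1l, Mef2a, Mef2c, Mef2d, Zeb1 and Zeb2, 7 of 21887 protein-coding genes, taken by name as factors of blood progenitor cells together with the neighbour of Myb. Their H3K27ac peaks were those that reached the 1 kb on either side of a gene end and those whose summit lay in the gene body or in the 150 kb on either side. These were 60 of the 22948 peaks in the list, 23 in a body and 37 in flanks only, and 16 of the 60 belonged to both Myb and Hbs1l. H3K27ac is the acetylation of lysine 27 of histone H3, a mark of active promoters and enhancers. It was measured by ChIPmentation, in which bound chromatin is tagged for sequencing by the Tn5 transposase. The single group was mouse bone marrow cells sorted as lineage-negative, Sca1-positive, Kit-positive and CD45.2-positive, labelled HSC/MPP, in which Mll3 and Mll4 had been deleted. It comprised 4 H3K27ac libraries and 1 input library of the same genotype. No unmodified genotype, age, sex, Cre driver or number of animals is given in the labels used here, so no value below can be read as an effect of the deletion. The deposited list pools the 4 libraries, so its values carry no replicate error and no test between samples was possible. Libraries of a control genotype were not analysed here.

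MYB is a DNA-binding factor needed for definitive blood formation and for the growth of immature progenitors, and it works by recruiting the acetyltransferases p300 and CBP. The stretch of DNA between Myb and Hbs1l is known for distal enhancers of Myb. Hbs1l encodes a factor that rescues stalled ribosomes. MEF2A, MEF2C and MEF2D are MADS-box factors that are held inactive by class IIa histone deacetylases, and MEF2C is known in lymphoid and myeloid progenitors. ZEB1 and ZEB2 are zinc finger repressors of the epithelial state that also act in blood, where ZEB2 is needed for stem and progenitor cell differentiation.

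The cell label was compared with peaks within 1 kb of the ends of marker genes, which 36.2% of all protein-coding genes had. Of the 6 markers of the sorted population, 4 had such a peak: Kit (signal value 5.66), Flt3 (6.58), Slamf1 (3.21) and Ptprc (10.8). Ly6a, which encodes Sca1, and Cd34 had none. Of the 10 markers of lineage cells that the sort should remove, 9 had none and 1 had a peak at an end. The signal value is the authors' own enrichment ratio of H3K27ac over background for that peak. Over the whole list its median was 3.27, with quartiles of 2.69 and 4.62. A peak mapped over a gene is not a measure of its RNA. With bulk chromatin, a mark in few cells and a weak mark in many cells cannot be told apart.

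The starts of the genes are shown first, because the members differed in which of their annotated starts had a peak. RefSeq start windows on GRCm38, each 300 bases from 250 before a start to 50 after it, were found for 6 of the 7 genes, 11 windows in all. A peak overlapped at least 1 window of each of the 6 genes, and 6 of the 11 windows. Among all 17492 protein-coding genes with such a window, 26.6% had a peak over at least 1. Capitals mark matches to the MYB motif AACNG, the ZEB E-box CAGGTG or CAGGTA and the MEF2 box, on either strand. The windows of Myb (chr10:21160935-21161234, minus strand), Mef2a (chr7:67372809-67373108, minus strand), Mef2c start 3 (chr13:83573357-83573656, plus strand) and the innermost Zeb2 start, start 1 (chr2:45110228-45110527, minus strand) lay wholly under a peak. Mef2c start 1 (chr13:83503784-83504083, plus strand) and the outermost Zeb2 start, start 4 (chr2:45117393-45117692, minus strand) had none and are given for contrast; starts are numbered from the low coordinate.
Myb: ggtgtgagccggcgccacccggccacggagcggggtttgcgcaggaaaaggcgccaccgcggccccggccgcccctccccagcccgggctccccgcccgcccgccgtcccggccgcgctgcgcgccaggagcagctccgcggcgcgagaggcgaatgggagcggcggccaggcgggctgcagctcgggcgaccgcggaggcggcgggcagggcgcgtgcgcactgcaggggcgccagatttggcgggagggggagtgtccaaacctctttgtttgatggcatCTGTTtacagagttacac
Mef2a: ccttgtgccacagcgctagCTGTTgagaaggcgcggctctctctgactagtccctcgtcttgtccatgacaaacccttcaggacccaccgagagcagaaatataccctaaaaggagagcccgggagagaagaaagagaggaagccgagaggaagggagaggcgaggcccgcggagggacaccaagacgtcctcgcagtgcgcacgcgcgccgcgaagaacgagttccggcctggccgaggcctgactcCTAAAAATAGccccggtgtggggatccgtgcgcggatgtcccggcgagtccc
Mef2c, start 3: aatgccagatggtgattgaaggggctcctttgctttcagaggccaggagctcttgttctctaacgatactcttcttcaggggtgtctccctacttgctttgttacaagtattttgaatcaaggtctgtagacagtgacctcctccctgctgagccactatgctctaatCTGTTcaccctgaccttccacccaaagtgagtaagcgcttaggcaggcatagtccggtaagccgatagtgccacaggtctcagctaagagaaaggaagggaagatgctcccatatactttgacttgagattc
Mef2c, start 1: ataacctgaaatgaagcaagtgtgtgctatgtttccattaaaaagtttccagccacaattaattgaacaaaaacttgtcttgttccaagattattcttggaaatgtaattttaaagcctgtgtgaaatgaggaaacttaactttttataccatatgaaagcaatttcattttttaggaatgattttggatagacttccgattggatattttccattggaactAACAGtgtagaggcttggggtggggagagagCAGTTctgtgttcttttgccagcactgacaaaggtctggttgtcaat
Zeb2, start 1: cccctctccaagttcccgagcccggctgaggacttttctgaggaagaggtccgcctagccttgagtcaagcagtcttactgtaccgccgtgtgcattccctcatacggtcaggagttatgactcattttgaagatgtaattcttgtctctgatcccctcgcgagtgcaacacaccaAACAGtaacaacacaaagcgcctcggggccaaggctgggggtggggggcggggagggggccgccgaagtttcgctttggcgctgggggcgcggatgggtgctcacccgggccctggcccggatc
Zeb2, start 4: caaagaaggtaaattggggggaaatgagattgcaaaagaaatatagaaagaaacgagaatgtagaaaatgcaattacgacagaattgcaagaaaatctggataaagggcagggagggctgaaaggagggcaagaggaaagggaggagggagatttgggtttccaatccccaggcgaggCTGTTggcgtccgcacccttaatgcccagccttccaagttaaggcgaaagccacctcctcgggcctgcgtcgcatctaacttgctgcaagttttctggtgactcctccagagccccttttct

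The Mef2a window held the only MEF2 box among the 11 windows, CTAAAAATAG, whose first base lies 2 bases before the annotated start. A MEF2 box was present in 2.74% of the 21263 start windows of protein-coding genes. The MYB motif occurred in 9 of the 11 windows and in 79.1% of all windows, so its presence at these starts is close to the general share. A ZEB E-box was found only in the Hbs1l window, where it begins 1 base after the start, against 28.3% of all windows. GGAA, the core of ETS sites, was in all 11 windows and in 95.7% of all windows. The windows of Zeb2 starts 2 and 3 overlap and share their MYB matches, so the 11 windows are not all separate stretches of sequence. These are matches of letters, not shown binding sites, and a window without a match says nothing of the factor.

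The windows overlapped by a peak held 40 CpG dinucleotides at Myb, 29 at Hbs1l, 27 at Mef2a, 24 at Mef2d and 19 at the innermost Zeb2 start, but only 4 at Mef2c start 3. The 5 windows without a peak held between 1 and 10, among them the overlapping windows of Zeb2 starts 2 and 3. Over all protein-coding start windows, the median was 22 CpG with a peak and 8 without. Of the 6035 windows with at most 4 CpG, 4.54% had a peak, so the Mef2c start with a peak belonged to a small class. At Hbs1l and Mef2d the overlap was partial, 10 and 55 of the 300 bases, and the start itself lay outside the peak.

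**Figure D1:**
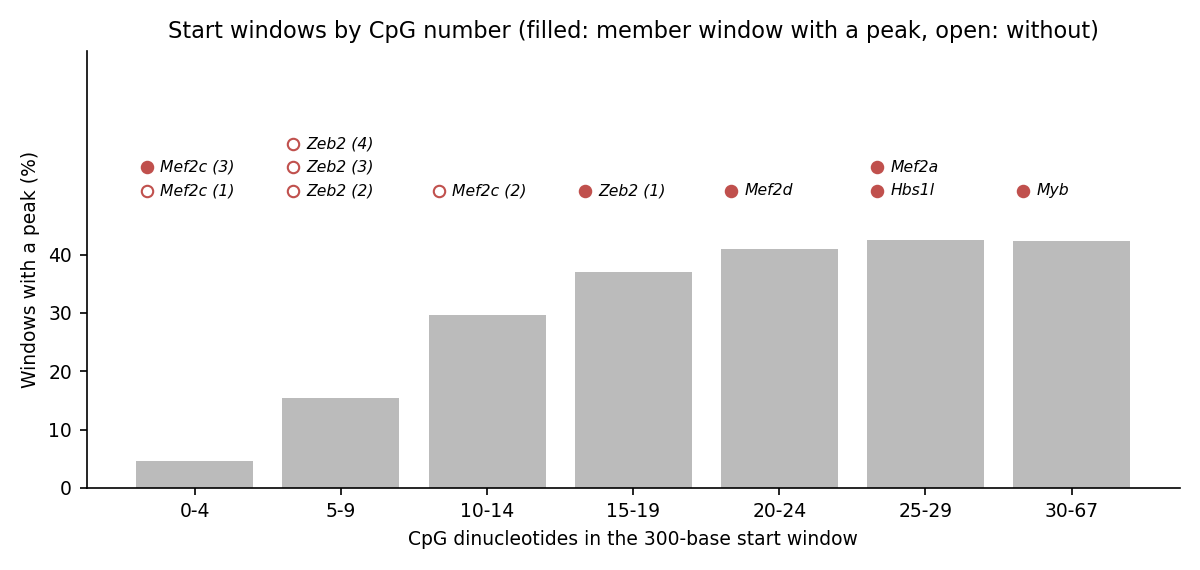
Grey bars give the percent of all protein-coding start windows with an H3K27ac peak, by number of CpG dinucleotides per 300-base window. Circles place the 11 windows of the described genes in these classes, filled with a peak and open without (their height carries no value, and Mef2c and Zeb2 windows are numbered from the low coordinate). The Mef2c window 3, with 4 CpG, is the filled circle in the lowest class.

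At gene ends, Myb, Hbs1l, Mef2d and Zeb1 had a peak within 1 kb, 4 of the 7 genes, against 36.2% of all protein-coding genes. The strongest such peak had a signal value of 9.43 at Hbs1l, 8.57 at Mef2d, 5.60 at Zeb1 and 5.39 at Myb. The median over the 7929 genes with a peak at an end was 4.71. Hbs1l stood above 92.0% and Mef2d above 88.4% of them, Zeb1 above 64.1% and Myb above 61.2%. Mef2a, Mef2c and Zeb2 had no peak at either outer end, yet each had a peak over a start that RefSeq places inside the gene. When a summit inside the 1 kb was required, only Myb and Hbs1l counted, since the summits at Mef2d and Zeb1 lay 2.7 kb and 2.2 kb from the end. That made 28.6% of the members, below the 33.3% of all protein-coding genes by the same rule, so the order of the 2 shares depended on the rule. All 7 genes had a summit in the body, against 38.0% of protein-coding genes of any length. Set against genes of 0.5 to 2 times their own length, the members spread widely: 46.1% of such genes had as many body peaks as Mef2d or more, 37.1% as Mef2a, 35.8% as Zeb2 and 28.3% as Zeb1, against 9.17% for Hbs1l, 8.66% for Mef2c and 3.32% for Myb. In the flanks, 6 of 7 had summits within 150 kb, close to the 79.0% of all genes.

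Myb (chr10:21124930-21160984, minus strand) carried 4 body peaks, and 3.32% of the 7176 genes within 0.5 to 2 times its length had as many or more. The peak over its start, chr10:21159686-21161738, had a signal value of 5.39 (−log10 q 11.3). The next peak, chr10:21157243-21159489, followed after 196 bp inside the gene, with a signal value of 4.04 and a summit 2.4 kb from the start. Deeper in the gene lay narrow peaks of 585 bp and 340 bp, 15.5 kb and 33.1 kb from the start, with signal values of 2.57 and 2.90. The first of these, with −log10 q of 1.22, had a q-value above 0.05. The acetylation called within Myb was thus strongest over its first kilobases.

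The interval from Myb to Hbs1l, 135 kb long (chr10:21160985-21295978), held 13 peaks. Across 2836 intervals between neighbouring protein-coding genes of 67.5 kb to 270 kb, the median was 0 and 68.2% had none. Only 3 had 13 or more, this interval included; the others were Katnal1 to Hmgb1 with 18 and Ly6m to Ly6e with 14, both named after their values were seen. The 13 peaks covered 9.89% of the interval. Their signal values ran from 1.96 to 5.19 with a median of 3.15, near that of the whole list. Several lay close together, and with peaks within 1 kb merged the interval held 7, a number reached by 10 of the 2836 intervals (0.353%). With −log10 q of at least 5 it held 3, reached by 39 (1.38%). Of the 13, 3 had −log10 q of at least 5 and 4 had a q-value above 0.05. Over the whole list these shares were 36.1% and 21.2%, so the interval was not rich in well-supported peaks.

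Joined within 3 kb, the 13 peaks formed 5 blocks, placed here by their distance upstream of the Myb start. The nearest block, 24.5 kb to 28.1 kb away, had 3 peaks, valued 2.75, 3.15 and 3.18. The second, 31.6 kb to 32.6 kb away, had 2 weak peaks of 2.35 and 2.26, both with q-values above 0.05. The third, 61.4 kb to 67.0 kb away, had 3 peaks of 3.70, 3.61 and 2.5.
The fourth block, 71.6 kb to 77.9 kb away, held the strongest peak of the interval, chr10:21233796-21236552, 2757 bp wide with a signal value of 5.19 (−log10 q 11.9). Beside it lay peaks of 4.74 and 2.05. The fifth, 90.3 kb to 91.9 kb away, held a peak of 5.17 (chr10:21251277-21252325, −log10 q of 9.80) and a weak peak of 1.96. The strongest intergenic peaks had signal values close to the 5.39 of the Myb start itself. No peak lay in the 23.7 kb next to the Myb start peak or in the 43.2 kb before the Hbs1l start peak, so the blocks sat in the middle of the interval. Of the 13 peaks, 10 overlapped annotated non-coding RNA genes (Gm40608, Gm33619, Gm33671 and Gm33728). The share of all peaks over such genes was not counted, so this gives their position only.

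Hbs1l (chr10:21295979-21368889, plus strand) had the strongest peak of the pair, chr10:21296019-21297528, with a signal value of 9.43 (−log10 q 31.3). It began 40 bp inside the gene. The other body peaks were 3 weak peaks of 2.42 to 3.18, 32.1 kb to 39.0 kb from the start, over the non-coding gene 4930455C13Rik. On the far side lay a group of 3 peaks 97.7 kb to 101.7 kb past the gene, of which the strongest had a signal value of 5.88. Because the interval is shared, the counts of 20 flank peaks for Myb and 18 for Hbs1l include the same 13 peaks and each other's start peaks.

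On the other side of Myb, 6 flank peaks lay towards and inside Ahi1, a gene known as a retroviral integration site next to Myb. The strongest was chr10:21076322-21078571 in Ahi1, with a signal value of 6.61, above that of the Myb start. Wide peaks of 3358 bp (5.44) and 4446 bp (4.99) followed between Ahi1 and Myb. With 2 weaker peaks they formed a joined cluster of 25.8 kb (chr10:21076322-21102140), rank 190 of 8972 by summed signal value times length and among the 390 top clusters. The largest cluster of the Myb to Hbs1l interval ranked 499 and was not among them. A ChIPmentation peak does not say which gene it acts on.

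**Figure D2:**
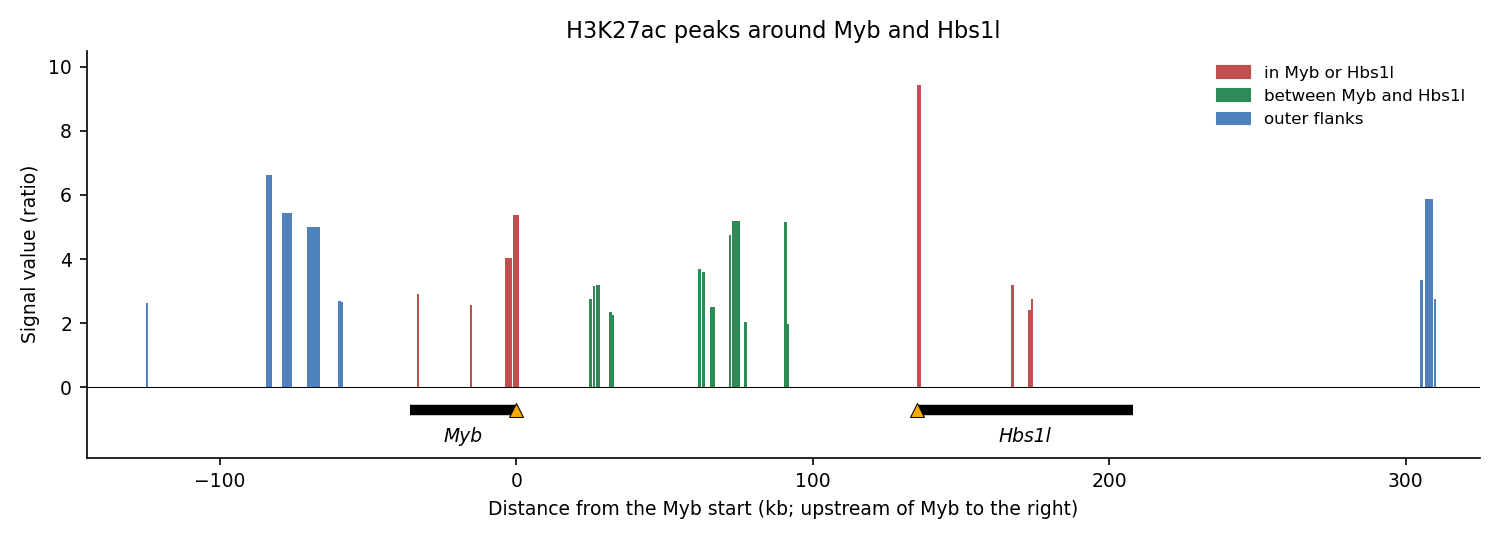
Bars show the signal value (enrichment ratio) of each H3K27ac peak against distance in kb from the Myb start, with black bars for Myb and Hbs1l and triangles for their RefSeq starts. The narrowest peaks are drawn slightly wider than to scale. The 13 green peaks between the genes reach 5.19, the start of Hbs1l 9.43 and the peak in Ahi1 6.61.

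The Mef2 genes differed in where their peaks lay. Mef2c (chr13:83504017-83667079, plus strand) had all of its 7 peaks inside the gene and 0 in the 150 kb on either side. The nearest peaks outside were 390 kb below and 981 kb above the gene. Of 341 protein-coding genes with at least 7 body peaks, 15 had none in these flanks, and their median number of flank peaks was 5. Compared with the 2576 genes of 0.5 to 2 times its length, 8.66% had as many body peaks or more, and peaks covered 10.4% of the gene. Both comparisons rest on all 7 peaks. With −log10 q of at least 5, and equally with a signal value of at least 4, Mef2c had 2 body peaks. Neither comparison was recomputed for those stricter lists.

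Within Mef2c, the strongest peak was also the widest, chr13:83570305-83575267, 4963 bp with a signal value of 5.02 (−log10 q 9.80), over start 3. The second, chr13:83524280-83528476, was 4197 bp wide with a signal value of 4.50 and began 624 bp after start 2. The peak nearest to start 1 began 14082 bp after it. Peaks of 3.03 and 3.15 followed start 2, and peaks of 3.45 and 3.76 lay 105.7 kb and 146.0 kb from the gene's low end. The weakest, 2.66, lay 14.3 kb from that end with a q-value above 0.05. Of the 7 peaks, 5 were wider than 1480 bp, the upper quartile of the list.

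Mef2a (chr7:67231163-67376456, minus strand) had 2 body peaks across 145 kb. The one at its start, chr7:67371734-67373922, had a signal value of 8.08 (−log10 q 24.4), above 94.4% of the list, and spanned the window with the MEF2 box shown above. The other, 3.06, lay 8.0 kb inside the far end. Among 2862 genes of similar length, 37.1% had as many or more. Upstream, 5 peaks lay 43.5 kb to 137.3 kb from the gene with signal values of 2.23 to 3.55, none with −log10 q of at least 5, and the farthest was at an end of Lrrc28. A peak of 3.36 on the other side was at an end of Lysmd4. Mef2a thus combined a strong start with weak surroundings.

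Mef2d (chr3:88141941-88172091, plus strand), was the shortest of the members at 30.2 kb. Its start lay in a gap of 272 bp between a peak of 4941 bp, chr3:88137236-88142176 (signal value 8.57, −log10 q of 26.3), and one of 8891 bp, chr3:88142449-88151339 (4.67, −log10 q of 9.21). Together they covered 30.3% of the gene and formed a cluster of rank 87, the only top cluster over a member; 1.45% of protein-coding genes were overlapped by a top cluster. Both summits lay beyond 1 kb of a gene end and so counted as distal.
The strongest of the 60 peaks, chr3:88176734-88178610, had a signal value of 11.66 (−log10 q 45.1), rank 237 of the list. It lay 5.9 kb past the far end of Mef2d and covered the start window of 1700113A16Rik, a non-coding RNA gene which is on the minus strand and whose far end overlaps Mef2d. The remaining peaks, 3.22 and 6.82, were at the ends of Tsacc and Cct3, 124.4 kb and 125.3 kb past the gene. The highest value at Mef2d itself was thus 8.57, below the 9.43 at the start of Hbs1l. None of the 5 peaks of Mef2d had a q-value above 0.05.

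**Figure D3:**
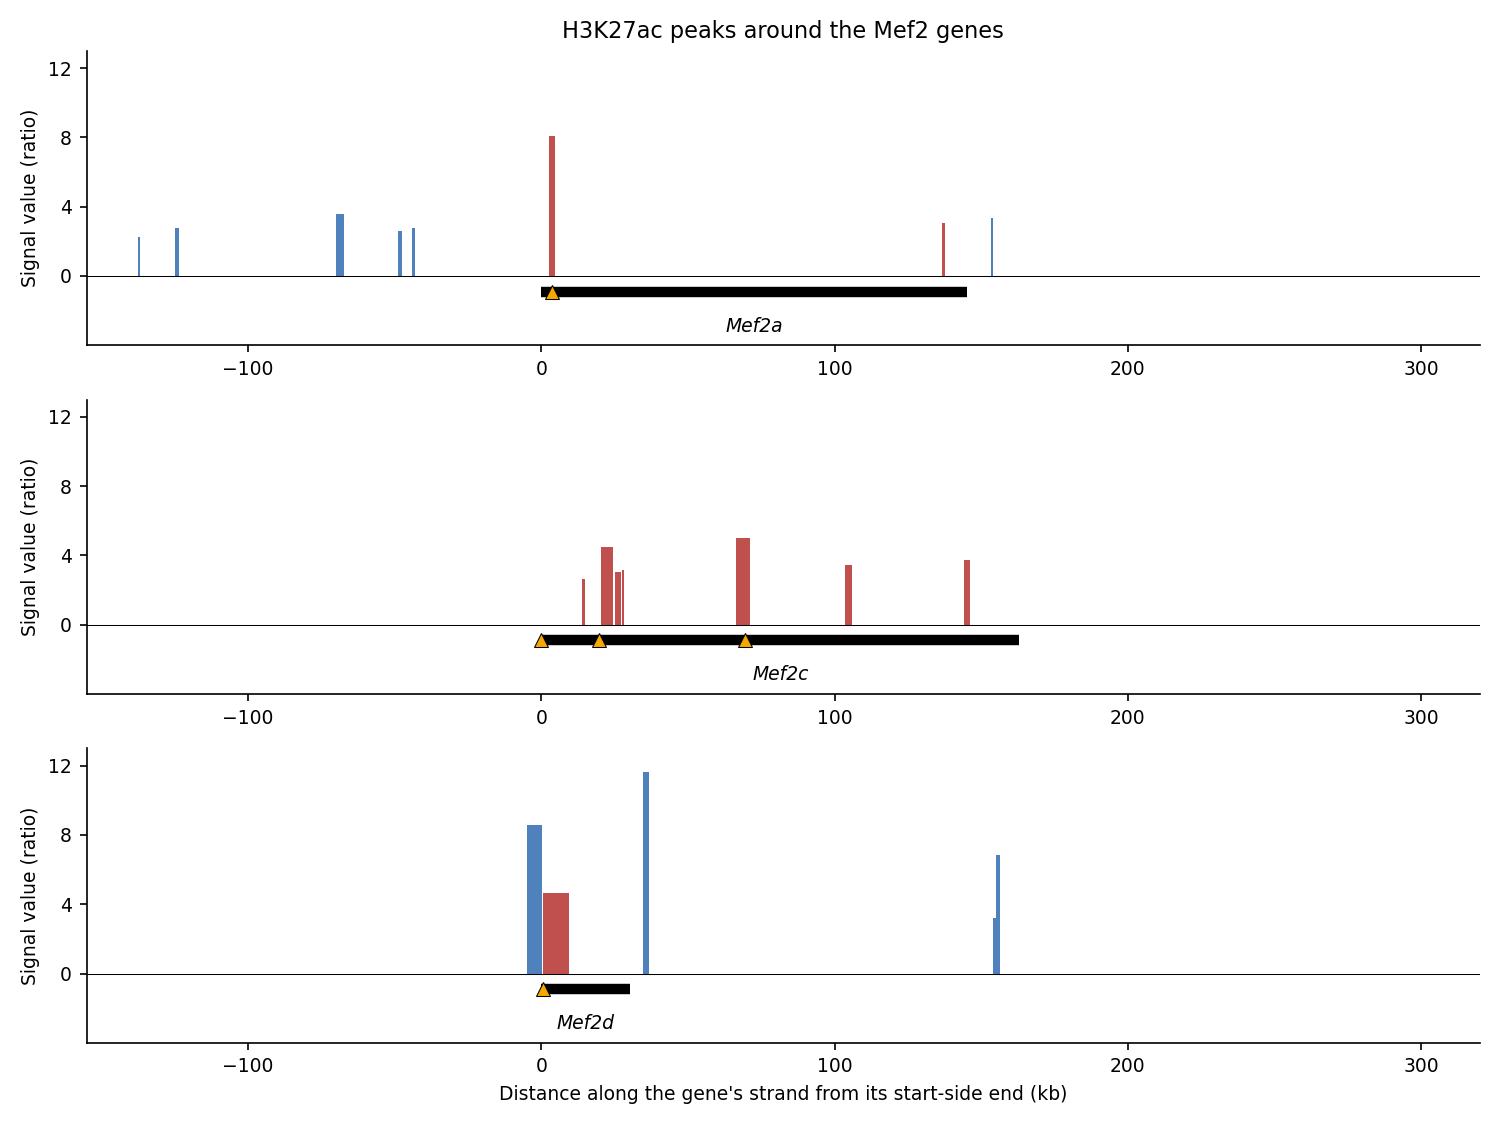
Bars show the signal value (enrichment ratio) of each H3K27ac peak against distance in kb along the strand from the outer start-side end of Mef2a, Mef2c and Mef2d, red for summits in the gene and blue for flanks. Black bars are the genes and triangles the RefSeq starts, and the narrowest peaks are drawn slightly wider than to scale. All 7 Mef2c peaks are red, while the highest Mef2d peak, 11.66, is past the end of the gene.

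Zeb1, 184 kb long, had 3 body peaks, and 28.3% of the 2271 genes of similar length had as many or more. The peak nearest its low-coordinate end was 2332 bp wide with a signal value of 5.60 (−log10 q 12.1), and it also touched the end of the non-coding gene Gm10125. The strongest lay 12.7 kb from that end, with a signal value of 7.53 (−log10 q 21.6), above 92.9% of the list. The third, 2.54, lay 157.9 kb from the end with a q-value above 0.05. The single flank peak, 2.41, lay 30.9 kb past the high-coordinate end, also with a q-value above 0.05. No other peak was found for 176 kb below the gene. The strand and start window of Zeb1 were not used here.

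Zeb2 (chr2:44983512-45117442, minus strand) had 2 body peaks, with summits 6.9 kb and 5.1 kb from its outer start-side end. The stronger, chr2:45109830-45111308, had a signal value of 4.93 (−log10 q 9.06) and covered the innermost of 4 annotated start windows. The other, 2.66 and with a q-value above 0.05, lay between that start and the next, and both overlapped the antisense gene Zeb2os. The remaining 3 windows had no peak. The body then held none for the rest of its 134 kb. Past the far end of Zeb2, inside the neighbour Gtdc1, lay peaks of 6.73 and 6.02, 60.0 kb and 57 kb from the gene and stronger than any within it. On the start side, peaks of 2.88 and 2.48 lay 122.3 kb and 136.8 kb away over the non-coding gene Vis1. In both paralogs the stronger body peaks lay within 12.7 kb of 1 outer end, and their signal values were higher in Zeb1.

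**Figure D4:**
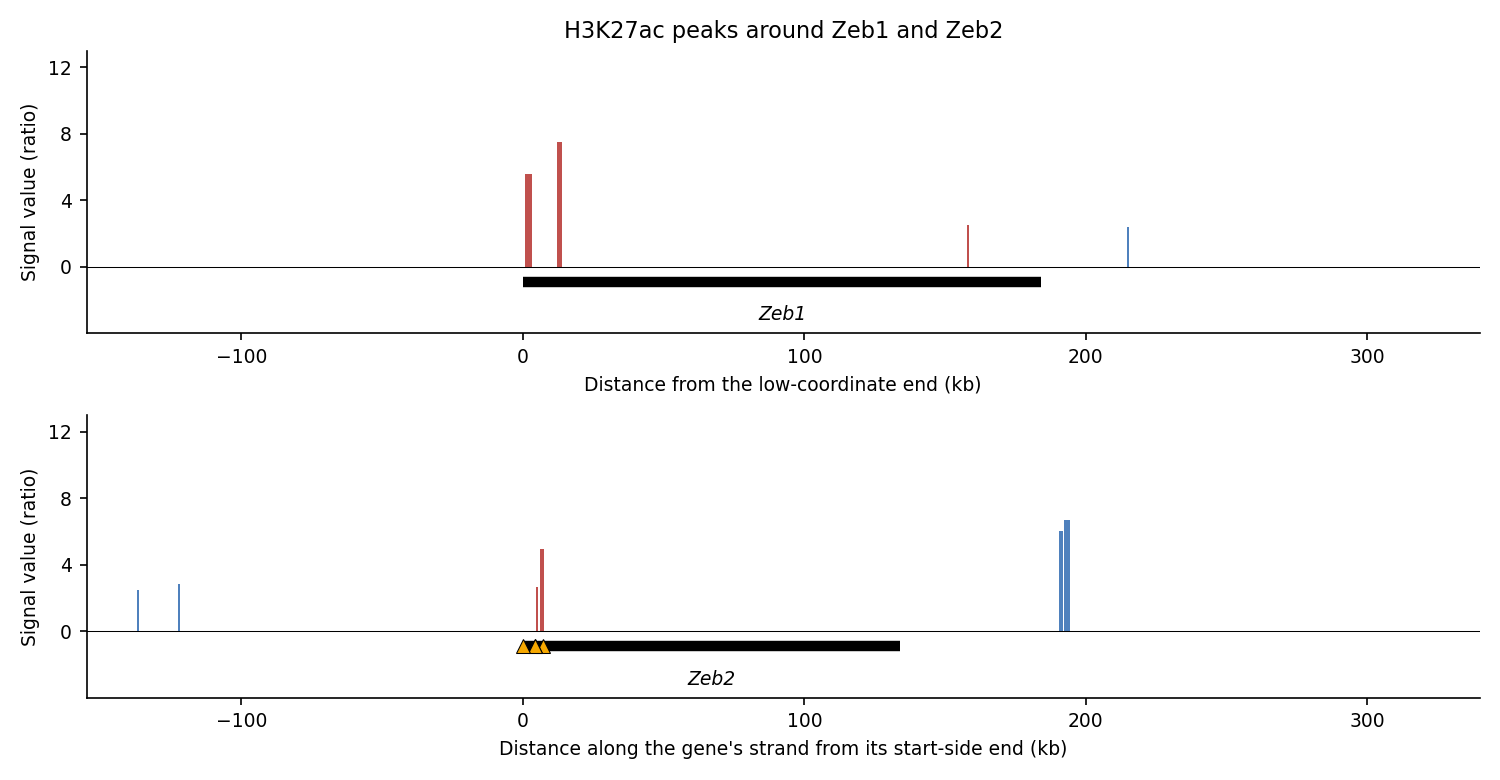
Bars show the signal value (enrichment ratio) of each H3K27ac peak against distance in kb from the low-coordinate end of Zeb1 and, along its strand, from the outer start-side end of Zeb2 (red in the gene, blue in flanks). Black bars are the genes and triangles the Zeb2 starts, and the narrowest peaks are drawn slightly wider than to scale. In both genes the peaks above 4 within the body lie at the left end, reaching 7.53 in Zeb1 and 4.93 in Zeb2.

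Taking the 60 peaks together, the median signal value was 3.20, against 3.27 over the list, and 36.7% had −log10 q of at least 5, against 36.1%. Of the 60, 54 were distal, a larger part than in the list, where 15480 of 22948 were. Since the 60 were gathered from gene ends, bodies and 150 kb flanks, this part depends on that rule. Among distal peaks, those of the members had a median signal value of 3.16 against 2.97, and 35.2% had −log10 q of at least 5 against 25.6%. That class holds peaks over or beside annotated starts, among them those of Mef2a, Mef2c, Mef2d and Zeb2. With peaks over any annotated start window left out of both, 46 member peaks had a median of 3.04 against 2.90, and 28.3% had −log10 q of at least 5 against 22.2%. The 46 still held the Zeb1 peaks of 5.60 and 7.53, since no start window of Zeb1 was used. They also held the Mef2d peak of 4.67, which began 77 bp after the start. These peaks had −log10 q of at least 5, and the share without them was not computed. The difference therefore cannot be read as one of peaks away from starts. All 60 peaks had a median width of 987 bp, against 854 bp over the list, and 38.3% were wider than its upper quartile of 1480 bp. The 23 body peaks had a median width of 1510 bp and 12 were wider than that quartile, 5 of them in Mef2c, while the 37 flank peaks had a median of 954 bp and 29.7% were wider. The median signal value per gene ran from 2.91 at Mef2a to 6.82 at Mef2d, where the median was the peak at the ends of Tsacc and Cct3, with 3.16 at Myb, 3.18 at Hbs1l, 3.45 at Mef2c, 3.90 at Zeb2 and 4.07 at Zeb1. The genes also differed in the number of their peaks: 24 in body and flanks at Myb, a number reached by 0.955% of protein-coding genes, and 4 at Zeb1, equal to the median over all of them.

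**Figure D5:**
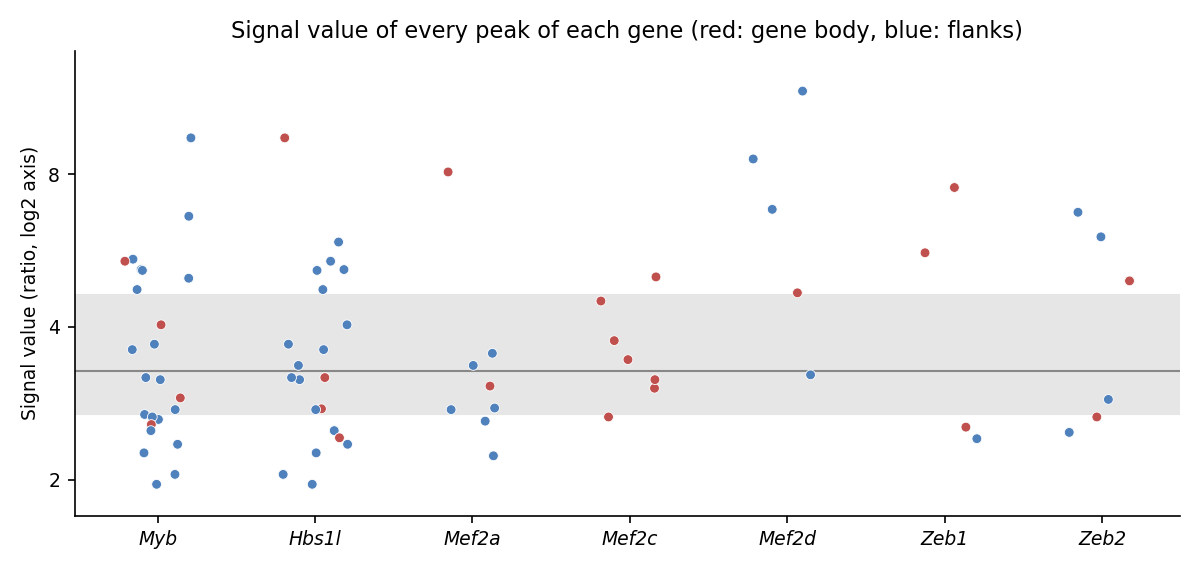
Each point is an H3K27ac peak, with its signal value (enrichment ratio) on a log2 axis, by gene; red points have their summit in the gene body and blue points in the flanks. The grey band and line give the quartiles (2.69 and 4.62) and median (3.27) of the whole list. Myb and Hbs1l have the most points and share 16 of them, and the highest point, 11.66, lies in the flank of Mef2d.

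Genes linked to these factors were read in the same way. Of 27 such genes, 13 had a peak at an end, 48.1%, against 36.2% of protein-coding genes. With −log10 q of at least 5 only Ep300, Kit, Crebbp and Ctbp1 did, 14.8%, below the 24% of all genes, so the list did not stay above the general share. The acetyltransferases bound by MYB and MEF2 both did, Ep300 with a signal value of 7.62 and Crebbp with 4.37. Kit, the stem cell factor receptor, had 5.66 and 16 body peaks. Among MEF2 regulators, 2 of 7 had an end peak: Mapk7 (3.18) and Mapk14 (3.28), both kinases. The class IIa deacetylases Hdac4, Hdac5, Hdac7 and Hdac9 had none at an end. In the body, Hdac4 had 9, Hdac7 had 7, Hdac9 had 6 and Hdac5 had 0 peaks. Neither these body counts nor that of Kit were set against genes of similar length.
Of the family members not studied above, Mybl1 had an end peak of 2.81, and Mybl2 and Mef2b had none there or in the body. Of the ZEB partners and relatives, 3 of 8 had an end peak: the corepressor Ctbp1 (4.24) and the TGF-beta effectors Smad2 (3.70) and Smad3 (3.58). Ctbp2, Snai1, Snai2, Twist1 and Cdh1 had none. Among MYB interactors and targets, Men1, Psip1, Bcl2 and Ccnb1 had end peaks of 2.91 to 3.32, and Cd34 and Gata3 had none, as did Camk4, a kinase that acts on MEF2.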

How the data were processed

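Peaks of H3K27ac were read from 1 narrowPeak list for 4 pooled libraries over 1 input library. The submitters' processing notes name BWA, MACS2 and the build mm10, without versions or roles; depth and thresholds are not given in the sources used here. The list's name calls it an optimal overlap set, so peaks were selected by some overlap whose rule is likewise not given, and peaks outside that selection are not counted. The signal value is the ratio (fold enrichment over background) deposited by the authors, and the −log10 p and −log10 q are those deposited by the authors. The list has no header, so the meaning of the columns was taken from the layout of the format; 1 column of values was not used. Gene spans and start windows came from RefSeq on GRCm38.p6, the same assembly as mm10; coordinates are 1-based. All 7 members and 27 related genes matched by symbol.

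Counting used Python 3.11.15, numpy 2.4.6 and pandas 2.3.3 and was tested on simulated peaks. An end peak is one that reaches within 1 kb of an end of the gene; body and flank peaks were assigned by summit. Distal peaks, with summits over 1 kb from protein-coding gene ends, were joined within 12 kb and ranked by the sum of length times signal value; those beyond the slope of 1 of the scaled curve are called top clusters. Counts are set beside the same counts over all protein-coding genes; no test was made, since the list holds no values by library. All members are named, with their end peaks and their strongest, widest and weakest others; of the related genes, the 3 strongest and those without an end peak, and other genes with ends in the flanks, further genes being named after their values were seen. Members, lists and rules were chosen with earlier results of these data known. The annotated-start alternative, CpG counts, block joining within 3 kb, neighbour distances and the comparison without peaks over start windows were added after seeing the data. The values of 1 lineage marker are not reported here.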

Additional observations from a re-analysis of the deposited data

How the results depend on the processing

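Of 36 recomputed values in 8 results, 23 stayed within a factor of 1.5 of the reported value and 13 moved further. Stricter lists moved the counts most. With −log10 q of at least 5, and equally with a signal value of at least 4, there were 10 body peaks in place of 23, 12 flank peaks in place of 37, 3 peaks between Myb and Hbs1l in place of 13, and 4 related genes with an end peak in place of 13. These 4 were 14.8% of the list, below the 24% and 23.2% of all protein-coding genes in the stricter lists, whereas 13 were 48.1% against 36.2%, so the order turned. The median signal value with −log10 q of at least 5 was 5.52 in place of 3.20. In both stricter lists, body peaks numbered 2 in place of 4 at Myb, 1 in place of 4 at Hbs1l and 2 in place of 7 at Mef2c. Shares of genes of similar length with as many body peaks were not recomputed for these lists. Of 2836 intervals of like length, 39 and 33 held at least 3 in these lists, a comparison added after seeing the data. Merging peaks within 1 kb left 7 regions between Myb and Hbs1l (10 intervals with as many or more), and flanks of 50 kb left 18 flank peaks. The number of members with an end peak stayed at 4 in both stricter lists, with q-values up to 0.05 and with 2.5 kb. It was 2 with the summit in the window (28.6% against 33.3% of all genes) and 6 with annotated start windows, an alternative chosen after seeing the data. The share of all genes with an end peak was 20.9% over all annotated genes in place of 36.2%. Depth is unknown, so a missing peak does not show missing acetylation. Mef2d was the only member under a top cluster in each of the 3 alternatives.

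Leaving out single libraries was not possible from a pooled list. No paired analysis was possible because the only peak list used here joins all 4 libraries.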
